A study of Mus musculus with 24 samples.

Results

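Cortex RNA of 24 mice was sequenced in bulk to compare the response to induction in 2 TREM2 genotypes, with 6 libraries in each of 4 groups. The genotypes were written TREM2-WT+/+; Cx3cr1CreER/+ and TREM2-R47H+/+; Cx3cr1CreER/+, both on the C57BL/6 strain, and are called WT and R47H here. Control mice received corn oil, the vehicle, and induced mice received tamoxifen, so all 24 mice carried 1 Cx3cr1CreER allele and only induced mice were exposed to tamoxifen. The quantity described is the genotype by induction interaction: the log2 difference between induced and control R47H mice minus the same difference in WT mice. It uses all 24 libraries and was estimated for 19678 of 43346 genes, those with enough counts to be tested. A positive value means that the induced level stood higher over its control in R47H than in WT, and a negative value the reverse. The labels state neither the origin of the TREM2 construct nor the age of the mice.

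TREM2 sits on the surface of microglia, the macrophages that reside in brain tissue. It binds lipids and lipoproteins and signals through the adaptor TYROBP and the kinase SYK, and the R47H substitution in its ligand-binding domain raises the risk of Alzheimer's disease in people. In Cx3cr1CreER mice a tamoxifen-dependent Cre recombinase is expressed from the Cx3cr1 locus, which is active in microglia and other mononuclear phagocytes. Tamoxifen is also a ligand of oestrogen receptors, and no tamoxifen-treated group without the Cre allele was analysed here, so effects of the drug and of recombination cannot be told apart. In bulk tissue, fewer cells of a type and less RNA per cell cannot be told apart either.

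Total counts ran from 27933505 to 56082520 per library. All 22 listed genes of excitatory cortical layers and all 21 of cortical interneurons passed the filter on low counts, and 4 of 17 hindbrain and spinal cord genes did. All 16 thalamus genes, all 15 choroid plexus genes and 17 of 18 striatal neuron genes passed it too. Passing the filter therefore does not show that only cortex was taken. By Y-linked genes and Xist every group held 3 males and 3 females. Replicate 6 of the induced WT group, a female, stood apart in immune genes and had 22.95% of its counts in 3 gene rows that collect ribosomal RNA reads (Yam1, AY036118 and Lars2). That rRNA-like share averaged 15.9% in WT control, 18.3% in WT induced, 20.3% in R47H control and 17.0% in R47H induced libraries, so it had an interaction of its own of -5.65 percentage points. Values without this library or after adjustment for this share stand beside many of the results below, and the part of either in a result was not tested beyond these values.

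Trem2 (ENSMUSG00000023992, chr17:48346401-48354147, mm10) was measured first. Its level, as CPM (the count relative to a library total scaled by TMM, the trimmed mean of M-values), ran from 5.93 through a median of 6.35 to 6.96 in WT control libraries and from 5.41 through 6.17 to 9.32 in WT induced libraries. In R47H control libraries it ran from 6.62 through 8.07 to 9.08, and in R47H induced libraries from 6.01 through 6.52 to 7.61. The R47H control libraries lay highest as a group, and the ranges of induced and control libraries overlapped in both genotypes. The interaction was -0.30 (SE 0.14, 95% confidence interval -0.59 to -0.01, unadjusted p = 0.0439, adjusted p = 0.623 by edgeR) and did not pass the test. It was smaller when WT induced replicate 6, the library with the highest WT value, was left out, at -0.17. Cx3cr1, the fractalkine receptor gene whose locus carries the Cre, had an interaction of -0.18 (SE 0.10, unadjusted p = 0.0805), and its libraries ran from 15.6 to 23.6 CPM over all groups. That value was -0.09 without WT induced replicate 6 and -0.02 after adjustment for the rRNA-like share. Tyrobp and Syk, the adaptor and kinase downstream of TREM2, had interactions of -0.31 (SE 0.22) and -0.38 (SE 0.19). These became -0.03 and -0.24 without WT induced replicate 6. Tyrobp lies outside the naming rule and was added after values were seen.

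Across the transcriptome no gene passed an adjusted p of 0.05 (0 of 19678, percent called 0, lowest adjusted p = 0.303, edgeR quasi-likelihood test with Benjamini-Hochberg adjustment). At an unadjusted p below 0.05 there were 1562 genes (7.94%), of which 760 had a positive (3.86%) and 802 a negative interaction (4.08%). DESeq2 called 3 genes, Glra1, Gm10557 and Pcdh17, and limma-voom called 0, with 1543 genes at an unadjusted p below 0.05. The median interaction of all tested genes was 0.003 and 51.0% of genes lay above 0. When counts were scaled by library totals alone, the median moved to 0.09 and the split to 2793 positive and 245 negative genes, so the split of directions changed with the scaling. List medians given below under library totals alone stand beside that all-gene median of 0.09. Without WT induced replicate 6, 1445 of 19811 genes had an unadjusted p below 0.05 (7.29%), 711 positive (3.59%) and 734 negative (3.71%). After adjustment for the rRNA-like share there were 872 (4.43%), 473 positive (2.4%) and 399 negative (2.03%). The all-gene shares of 7.94%, 7.29% and 4.43% are the background for the counts of list members below in the matching fits.

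Most of these genes went opposite ways in the 2 genotypes. Of the 760 genes with a positive interaction at an unadjusted p below 0.05, 740 had a lower induced than control level in WT and a higher one in R47H. Of the 802 with a negative interaction, 774 were higher on induction in WT and lower in R47H. Opposite signs were thus seen in 97.4% and 96.5% of these genes, beside 53.4% of all tested genes. Selecting genes for a large interaction favours opposite signs, so these shares are a description.

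Among the 24 genes with the lowest p, the first was Glra1, the alpha-1 subunit of the glycine receptor, an inhibitory chloride channel best known from spinal cord and brainstem. Its level was 0.676, 0.900 and 1.13 CPM (lowest, median and highest) in WT control libraries and 0.999, 1.35 and 1.82 in WT induced libraries. In R47H it was 1.21, 1.57 and 2.16 in control and 0.918, 1.13 and 1.32 in induced libraries. The R47H control libraries were all above the WT control libraries, and induced and control ranges overlapped in each genotype. The interaction was -1.15 (SE 0.23, unadjusted p = 2.79e-05, adjusted p = 0.303 by edgeR and 0.0279 by DESeq2), from a WT change of 0.61 and an R47H change of -0.54. It was -1.14 without WT induced replicate 6 and -0.90 after adjustment for the rRNA-like share. Its near relative Glra2 had -0.18 (SE 0.08, unadjusted p = 0.0443).

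Pcdh17, a protocadherin of neuronal cell adhesion and presynaptic assembly, had a small interaction with a narrow error. Its CPM ran from 85.1 through 90.2 to 92.8 in WT control and from 96.1 through 97.5 to 103 in WT induced libraries, with no overlap. In R47H it ran from 86.5 through 90.9 to 96.4 in control and from 84.4 through 87.4 to 90.5 in induced libraries, which overlapped. The interaction was -0.19 (SE 0.04, unadjusted p = 8.28e-05, adjusted p = 0.410 by edgeR and 0.0267 by DESeq2). Of 11 tested protocadherins outside the gene clusters, 8 were negative and 3 had an unadjusted p below 0.05, all negative: Pcdh17, Pcdh18 (-0.28, SE 0.10) and Pcdh20 (-0.19, SE 0.09). The median of that list was -0.08, beside 0.003 for all tested genes. Under library totals alone it was 0.01, beside 0.09 for all tested genes.

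Gpx3, a secreted selenium-containing glutathione peroxidase, was among the negative genes. It lay at 5.41, 5.95 and 7.64 CPM in WT control, 6.30, 8.42 and 10.6 in WT induced, 7.33, 8.85 and 10.4 in R47H control and 5.11, 7.13 and 8.61 in R47H induced libraries. WT control libraries were low and R47H control libraries high, with overlap between induced and control in each genotype. The interaction was -0.76 (SE 0.19, unadjusted p = 0.00044). It was -0.81 without WT induced replicate 6 and -0.72 after adjustment for the rRNA-like share.

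Among genes with a positive interaction, Hecw2, a ubiquitin ligase of the NEDD4 family, had 0.28 (SE 0.06, unadjusted p = 0.000125). Its CPM ran from 78.0 to 92.6 in WT control, 71.8 to 81.9 in WT induced, 67.9 to 83.6 in R47H control and 78.3 to 88.8 in R47H induced libraries, so WT control reached highest and all ranges overlapped. It was 0.29 without WT induced replicate 6 and 0.32 after adjustment for the rRNA-like share.

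**Figure D1:**
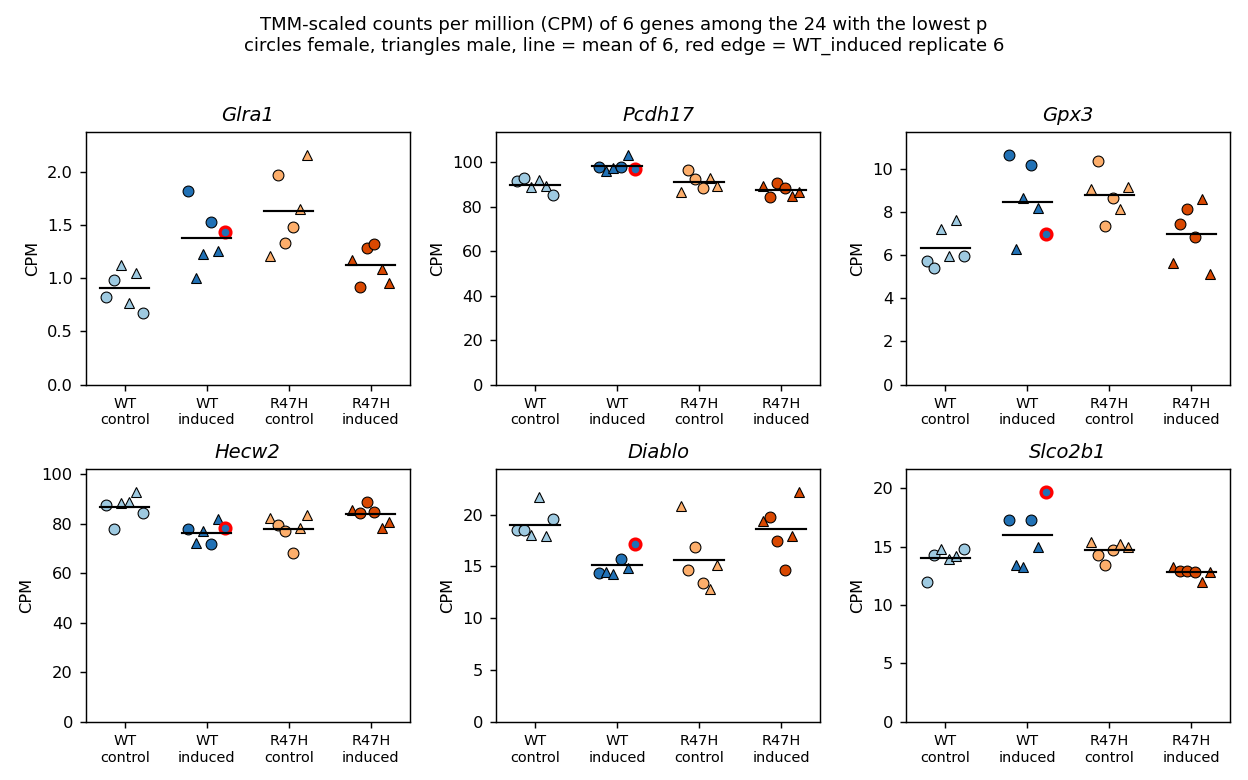
TMM-scaled CPM (vertical axis, from 0) of 6 genes in the 24 libraries by group (horizontal axis). Circles are female and triangles male libraries, the line is the mean of 6, and the red edge marks WT induced replicate 6. Control and induced libraries of WT do not overlap for Pcdh17, and the R47H control libraries of Glra1 all lie above the WT control libraries.

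The other coding genes of the 24 were spread over unrelated functions. Diablo, a mitochondrial protein that promotes apoptosis, had 0.58 (SE 0.14), with WT control libraries from 17.9 to 21.7 CPM and WT induced libraries from 14.3 to 17.2, which did not overlap. Slco2b1, an organic anion transporter also found in microglia, had -0.39 (SE 0.10), with -0.32 when WT induced replicate 6 was left out and -0.20 after adjustment for the rRNA-like share. Here the R47H control libraries (13.5 to 15.4 CPM) did not overlap the induced ones (11.97 to 13.2). Smaller positive values were seen for the kinase gene Mapkapk5 (0.31) and the phospholipid flippase gene Atp8b2 (0.22). Negative ones were those of the Rab GTPase activator Tbc1d1 (-0.30), the RNA-binding Samd4 (-0.28), Isoc1 (-0.26) and the kynurenine pathway gene Afmid (-0.61). Exons of other genes cover 40.9% of the exonic bases of Diablo, 56.5% of Mapkapk5, 46.6% of Afmid and 95.6% of Gm20708 (-0.71), so without strand their reads cannot be fully assigned.

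The remaining genes of the 24 were mostly low or non-coding: Gm10557 (0.80), Gm6685 (-1.55), 2610005L07Rik (0.87), Gm26516 (1.32), Chn1os3 (0.31), Gm5089 (-1.74), Got1l1 (-1.66), Gm9816 (0.35) and Gm5809 (1.52). Of these, Gm6685, Gm5089, Got1l1, Gm26516 and Gm5809 stayed at or below 1.30 CPM in every library. Gm6685, for example, ran from 0.144 to 0.475 CPM in WT control and from 0.638 to 1.30 in WT induced libraries. These genes kept their direction in every alternative run. Under edgeR, Gm10557, Gm5089 and Samd4 passed an adjusted p of 0.05 in some fits that left out 1 library or used 1 sex, and Gpx3 in females without WT induced replicate 6.

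Interferon-inducible and antigen presentation genes had large negative interactions with large errors, which were smaller over all 24 libraries when WT induced replicate 6 was left out. Guanylate-binding proteins (GBP) and immunity-related GTPases (IRG) are interferon-induced enzymes that attack membranes around intracellular pathogens. All 14 tested members were negative, with a median of -1.85, and 12 had an unadjusted p below 0.05. For genes of major histocompatibility complex (MHC) class I presentation, the pathway that shows cytosolic peptides to CD8 T cells, all 19 were negative with a median of -0.98, and 11 reached that p. Of 13 class II genes, which show ingested peptides to CD4 T cells, all were negative with a median of -0.58 and 4 reached it. Of 27 type I interferon response genes, all were negative with a median of -0.88 and 4 reached it. Across all genes the share of negative genes at that p was the 4.08% given above.

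Gbp2 shows the pattern. It lay at 1.76, 2.35 and 2.56 CPM in WT control, 1.72, 3.86 and 43.1 in WT induced, 1.94, 2.20 and 2.88 in R47H control and 1.65, 2.19 and 2.60 in R47H induced libraries. WT induced replicate 6 was far above all others, replicate 1 followed at 14.4 CPM, and the other groups overlapped. The interaction was -2.44 (SE 0.90, unadjusted p = 0.0131), -1.26 without replicate 6 and -0.48 after adjustment for the rRNA-like share. Tgtp1, an IRG, had -2.96 (SE 0.96), -2.26 without replicate 6 and -1.14 with the share. Its values ran in WT induced libraries from 0.273 to 3.49 CPM and in R47H induced libraries from 0.051 to 0.251. Ifi47 (-2.66, SE 0.86) and Gbp4 (-2.46, SE 0.89) were the next members by p.

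Among MHC genes, Cd74, the invariant chain that guards class II molecules until they reach endosomes, lay at 2.67, 3.38 and 4.80 CPM in WT control libraries. In WT induced libraries it lay at 2.13, 6.75 and 152, in R47H control at 4.17, 6.72 and 7.61 and in R47H induced at 3.17, 4.55 and 5.82. The interaction was -3.58 (SE 1.13, unadjusted p = 0.00487), -1.22 without replicate 6 (unadjusted p = 0.00473) and -0.94 with the rRNA-like share (unadjusted p = 0.477). H2-Aa, a class II alpha chain, had -3.73 (SE 1.18), -1.28 without replicate 6 and -0.99 with the share. H2-Ab1 (-3.46) and H2-Eb1 (-3.39) were alike, at -0.96 and -0.82 without the library. Of class I genes, H2-Q7 had -3.48 (SE 1.40), the immunoproteasome subunit Psmb8 -1.78 (SE 0.68) and the class I transactivator Nlrc5 -2.25 (SE 0.91). Without the library they had -1.86, -0.75 and -1.04. H2-Q, Tgtp and Gbp genes have near-identical copies, so the level of each single member is uncertain.

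Without WT induced replicate 6 the 4 medians were -0.88 for GBP and IRG genes, -0.34 for class I, -0.07 for class II and -0.23 for type I interferon genes. The members negative at an unadjusted p below 0.05 then numbered 5, 5, 4 and 0. After adjustment for the rRNA-like share the medians were -0.46, -0.17, -0.07 and -0.10 and no member of any of the 4 lists reached that p. In the type I list the lowest p belonged to Bst2 (-1.50, SE 0.68), Ifit2 (-0.33, SE 0.15) and Ifi44 (-1.63, SE 0.77), which had -0.57, -0.16 and -0.98 without replicate 6.

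Replicate 6 was not the only high library of its group, and the values differed by sex. From the median of the other 5 libraries of the group, the mean log2 level of the GBP and IRG list lay 2.91 higher in WT induced replicate 6, 1.83 higher in replicate 1 and 0.77 higher in replicate 4, all 3 female. In the 3 male libraries of the group it lay 0.77 to 1.07 lower. The rRNA-like share split the same libraries, at 19.8% to 22.95% in the induced WT females and 14.7% to 16.0% in the males. Sex and this share therefore cannot be told apart within this group. Female libraries were also fitted alone without replicate 6, which leaves 2 induced WT females. In that fit 80 of 20104 tested genes passed an adjusted p of 0.05 by edgeR. The lowest belonged to the class I gene H2-D1 (-0.99, adjusted p = 5.91e-05). The next were Per1 (0.68), AW551984 (-1.32), Tmem255a (-0.59), Fstl5 (-0.65) and Arhgap22 (1.11), none of them of antigen presentation. H2-K1 (-1.23, adjusted p = 0.00446), H2-Q4 (-2.06), H2-Q6 (-3.23), H2-Q7 (-3.09), H2-Aa (-2.11), H2-Ab1 (-1.58) and B2m (-1.01), all of antigen presentation, passed too. So did Gbp9 (-1.28), Gbp7 (-1.23), Gbp3 (-1.83) and Ifitm3 (-1.17), which interferon induces. Those that the naming rule did not choose were added after their values were seen. The 12 antigen presentation and interferon-induced genes given here were picked from the 80. None of the 12 was called in females with replicate 6 kept, where Per1, Fstl5 and Arhgap22 were.

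Promoters of these genes were read from RefSeq (GRCm38.p6) because interferons are known to induce many of them. The interferon-stimulated response element was searched as GAAANNGAA and the gamma-activated site as TTCNNNGAA, on both strands of the bases from 250 before to 50 after the start. The first was found in 9 of 10 GBP and IRG genes with a promoter entry (90%), 11 of 19 type I interferon genes (57.9%) and 5 of 16 class I genes (31.2%), against 9.76% of all 27025 genes. The second was found in 6 of 10 GBP and IRG genes (60%), 4 of 19 type I genes (21.1%), 1 of 16 class I genes (6.25%) and 0 of 8 class II genes, against 9.55% of all. Both were found in 6 of the 10 GBP and IRG genes and in 1.24% of all genes. A match is a string of letters and not a measured binding site. The next stretches of 4 IRG genes on chromosome 11 and of Bst2 and Isg15 are shown because the 4 IRG stretches carry the pair at the same spacing. Capitals mark matches of either motif, which overlap each other in Bst2, and each stretch is written 5′ to 3′ on the strand of its gene.
Tgtp1: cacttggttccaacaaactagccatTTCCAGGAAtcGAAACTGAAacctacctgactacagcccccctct
Tgtp2: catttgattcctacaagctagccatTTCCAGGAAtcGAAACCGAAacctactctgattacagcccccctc
Irgm2: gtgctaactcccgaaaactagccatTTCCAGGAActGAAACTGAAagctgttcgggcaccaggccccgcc
Igtp: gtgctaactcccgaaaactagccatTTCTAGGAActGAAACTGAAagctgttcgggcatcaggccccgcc
Bst2: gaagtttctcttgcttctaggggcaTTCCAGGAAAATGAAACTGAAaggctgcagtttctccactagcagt
Isg15: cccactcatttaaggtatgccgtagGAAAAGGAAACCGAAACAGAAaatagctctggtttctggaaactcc

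These stretches lie at chr11:48992290-48992359 (minus strand) for Tgtp1, chr11:49064249-49064318 (minus) for Tgtp2, chr11:58214877-58214946 (plus) for Irgm2 and chr11:58199486-58199555 (plus) for Igtp. Those of Bst2 and Isg15 lie at chr8:71537563-71537633 (minus) and chr4:156200851-156200921 (minus). The interactions of Tgtp2, Irgm2 and Igtp, shown for their promoters after values were seen, were -2.04 (SE 1.42), -1.59 (SE 0.71) and -1.67 (SE 0.76). They were -1.13, -0.87 and -0.67 without WT induced replicate 6. Isg15, a ubiquitin-like protein of the type I interferon response, was also added after values were seen. It had -0.91 (SE 0.52) and -0.23 without that library.

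**Figure D2:**
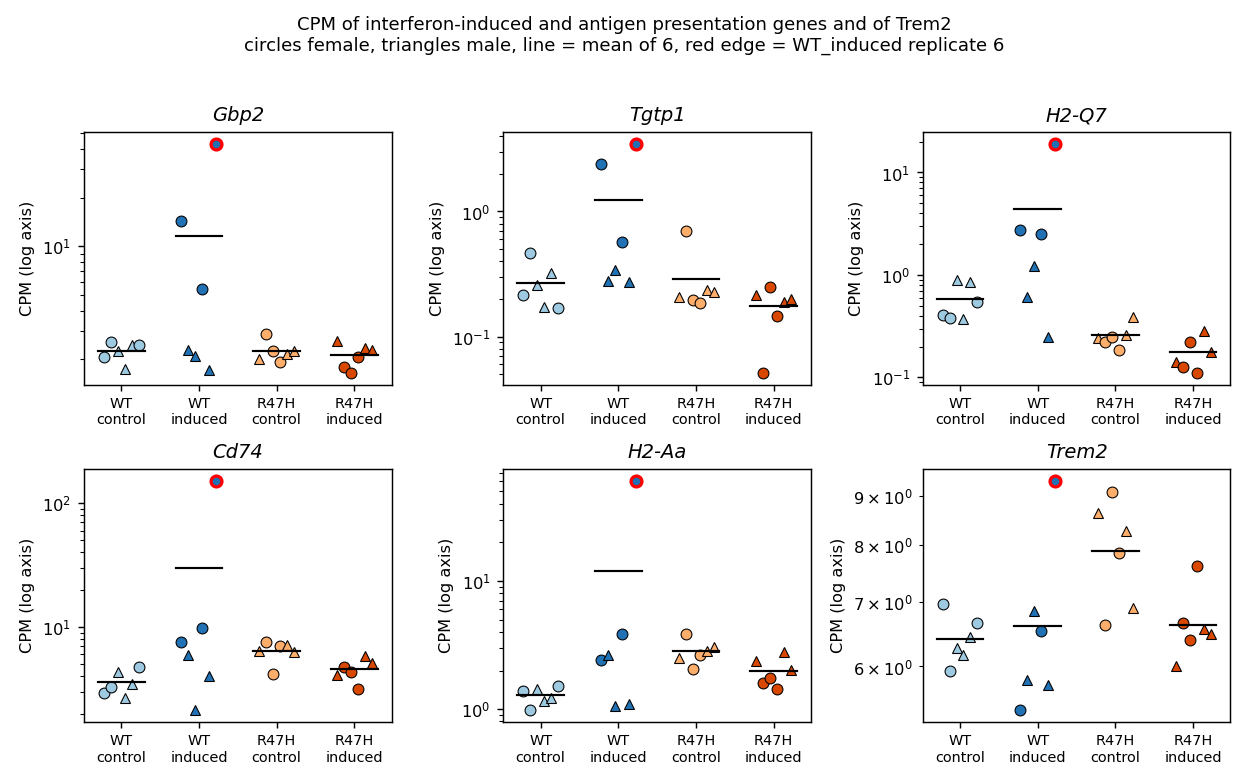
TMM-scaled CPM (vertical log axis) of interferon-inducible and antigen presentation genes and of Trem2 in each library by group. Circles are female and triangles male libraries, the line is the mean of 6, and the red edge marks WT induced replicate 6, which is the highest library for every gene shown, at 43.1 CPM for Gbp2 and 152 CPM for Cd74.

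Microglial lists were mostly negative, and most had medians clearly nearer 0 without the same library. The list of border-associated macrophages did not, with 10 of 12 genes negative and a median of -0.176. Its median was -0.175 without the library and -0.144 after adjustment for the rRNA-like share. Of 22 pan-microglial and myeloid genes all were negative, with a median of -0.43 and 5 at an unadjusted p below 0.05. Once WT induced replicate 6 was left out, 20 were negative with a median of -0.11 and 4 reached that p. The summed level of this list ran from 170.6 to 436.4 CPM in WT induced libraries, the top value being replicate 6, and from 172.1 to 212.6 in R47H libraries. Fcgr1, the high-affinity IgG receptor, had -0.75 (SE 0.28), and Ly86, a partner of a toll-like receptor relative, had -0.77 (SE 0.26). Laptm5, a lysosomal membrane protein of leukocytes, had -0.37 (SE 0.16), and without the library the 3 values were -0.42, -0.57 and -0.19. Of 19 TREM2 signalling partners all were negative, with a median of -0.25 (-0.04 without the library), and 3 reached that p. After adjustment for the rRNA-like share no member of either list reached it, with medians of -0.11 and -0.05, and Fcgr1, Ly86 and Laptm5 had -0.45, -0.49 and -0.16.

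Of 21 genes of disease-associated microglia, a state that TREM2 is known to license, 17 were negative with a median of -0.14, and 6 reached an unadjusted p below 0.05, all negative. Without the library the median was -0.07 and 5 reached it. Lowest by p were Gpnmb (-0.49, SE 0.17), a lysosomal glycoprotein, the lysozyme gene Lyz2 (-1.66, SE 0.70) and the integrin gene Itgax (-2.53, SE 1.08). These were -0.42, -0.42 and -0.77 without replicate 6. Of 19 homeostatic genes 15 were negative with a median of -0.13. At that p there was 1 (5.26%, beside 7.94% of all tested genes): Sparc, a matrix protein (-0.40, SE 0.16). P2ry12, the purinergic receptor that marks resting microglia, had -0.15 (SE 0.09). Of 17 complement genes all were negative with a median of -0.47 (-0.19 without the library). Among them C4b had -1.22 (SE 0.46) and C3 -3.32 (SE 1.47), which were -0.56 and -2.25 without it. Of 21 reactive astrocyte genes 20 were negative with a median of -0.29 and 6 reached that p, 5 without the library, where the median was -0.17. Gfap, the astrocyte intermediate filament, had -0.54 (SE 0.26) and -0.23 without it. With the share no disease-associated, homeostatic or complement gene reached that p, and the medians were -0.05, -0.02 and -0.12. Of reactive astrocyte genes 1 reached it then, with a median of -0.13.

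**Figure D3:**
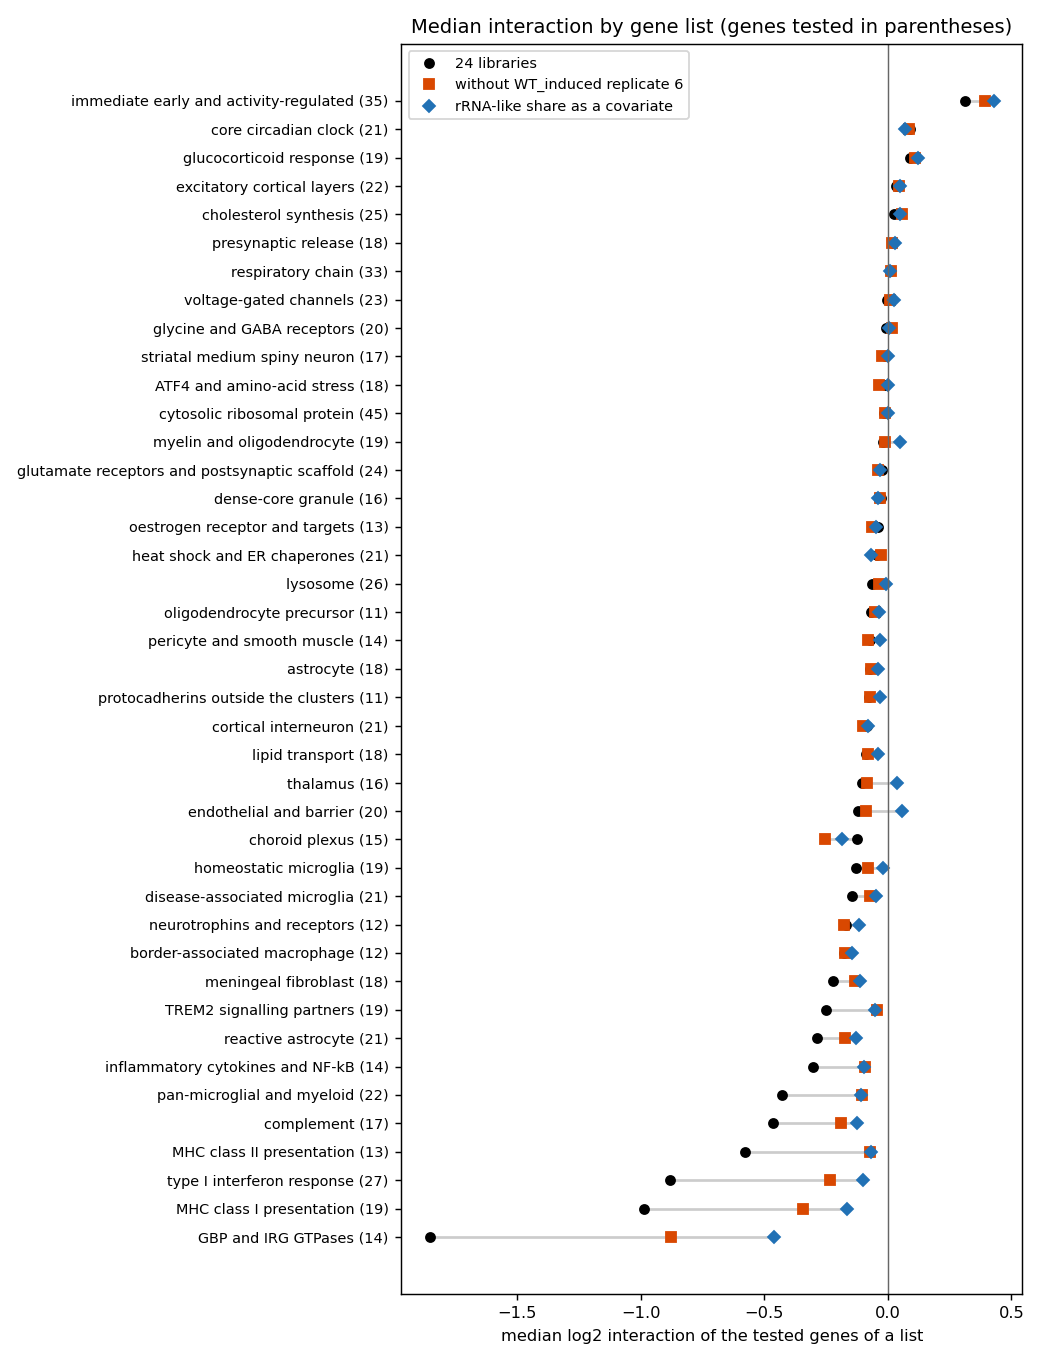
Median interaction (horizontal axis, log2) of each gene list with at least 10 tested genes (vertical axis, number tested in parentheses) over 24 libraries (circles), without WT induced replicate 6 (squares) and after adjustment for the rRNA-like share (diamonds). Medians of the GBP and IRG list run from -1.85 to -0.46 across the 3 fits, and the immediate early list has the highest medians.

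Among neuronal gene groups, neurotrophins and the receptors for them and for glial cell line-derived neurotrophic factor (GDNF) sustain neurons and their projections. Of 12 tested genes of this list 9 were negative. The median was -0.17, and 5 reached an unadjusted p below 0.05, all negative. Without WT induced replicate 6 it was -0.18 with 5, and with the rRNA-like share -0.12 with 4. Gfra1, the GDNF co-receptor, lay at 33.01, 35.4 and 39.8 CPM in WT control, 37.2, 39.8 and 40.9 in WT induced, 33.2, 35.1 and 39.5 in R47H control and 30.2, 34.1 and 35.2 in R47H induced libraries. WT induced libraries were the highest group, overlapping both control groups but not the R47H induced libraries. Its interaction was -0.23 (SE 0.07, unadjusted p = 0.00216, adjusted p = 0.452 by edgeR). Gfra2, the neurturin co-receptor, had -0.27 (SE 0.08), with libraries between 47.4 and 62.4 CPM over all groups. Ret, the tyrosine kinase that both co-receptors engage, had -0.51 (SE 0.17). Its CPM was 4.52 to 6.84 in WT control, 5.63 to 9.24 in WT induced, 7.32 to 8.92 in R47H control and 5.02 to 8.11 in R47H induced libraries. Ngfr, the low-affinity neurotrophin receptor, had -0.67 (SE 0.27), and Ntrk2, the receptor of brain-derived neurotrophic factor, -0.12 (SE 0.05).

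Core clock genes, which run the daily transcription cycle, had 15 positive members of 21, a median of 0.09 and 6 at an unadjusted p below 0.05, all positive. There were 5 without WT induced replicate 6, and with the rRNA-like share 3. Per1, a light- and hormone-inducible repressor of the cycle, lay at 72.2, 96.0 and 118 CPM in WT control and 65.8, 87.5 and 101 in WT induced libraries. In R47H it lay at 68.0, 80.8 and 81.7 in control and 97.0, 104 and 106 in induced libraries, which did not overlap. The interaction was 0.53 (SE 0.15, unadjusted p = 0.00159, adjusted p = 0.433 by edgeR). In female libraries alone it passed, at 0.72 (adjusted p = 0.000373 by edgeR), and also in females without WT induced replicate 6, at 0.68 (adjusted p = 0.000372). Ciart, another repressor, had 0.42 (SE 0.13), and its R47H libraries ran from 9.15 to 11.5 CPM in control and from 11.0 to 14.6 in induced mice. Bhlhe40 and Nfil3, transcription factors of the cycle's output, had 0.34 (SE 0.12) and 0.33 (SE 0.13). The labels do not state the hour at which tissue was taken.

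The E-box CACGTG, bound by the clock activators, was found in 5 of 18 clock promoters (27.8%) against 8.09% of all. Per1 and Ciart are shown because they had the lowest p among clock genes, and capitals mark the E-box in the plus-strand stretch chr11:69098758-69098813 and the minus-strand stretch chr3:95882242-95882369 (GRCm38.p6).
Per1: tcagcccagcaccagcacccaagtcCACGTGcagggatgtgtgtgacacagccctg
Ciart: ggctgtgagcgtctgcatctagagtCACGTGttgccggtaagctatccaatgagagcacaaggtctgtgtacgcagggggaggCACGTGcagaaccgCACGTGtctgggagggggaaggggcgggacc

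**Figure D4:**
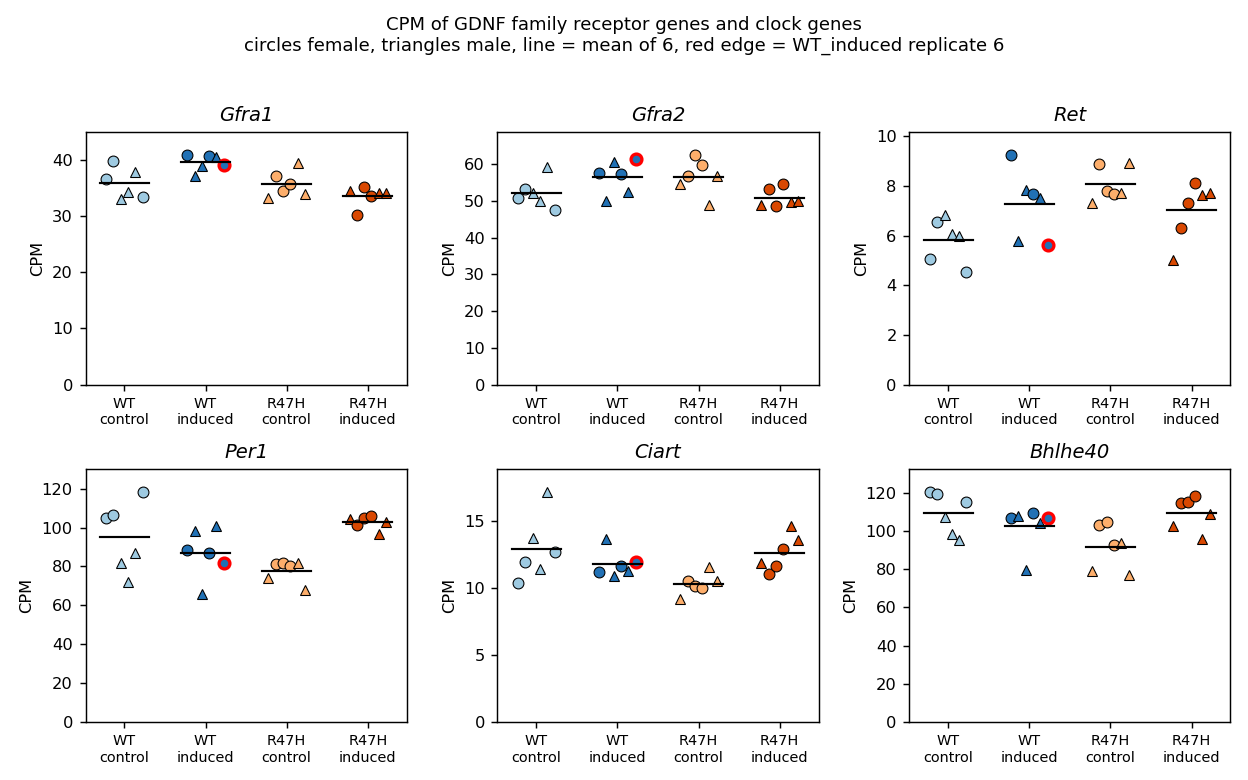
TMM-scaled CPM (vertical axis, from 0) of GDNF family receptor genes (top) and clock genes (bottom) in each library by group. Circles are female and triangles male libraries, the line is the mean of 6, and the red edge marks WT induced replicate 6, which is the highest of its group for Gfra2 and the lowest for Ret. All R47H induced libraries of Per1 lie above all R47H control libraries.

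Immediate early and activity-regulated genes, switched on within minutes of neuronal firing, had 29 positive members of 35 and a median of 0.31. At an unadjusted p below 0.05 there were 3 positive and 2 negative. Without WT induced replicate 6 the median was 0.39 with 8 positive and 0 negative, and with the rRNA-like share it was 0.43 with 10 and 0. Csrnp1, a nuclear transcription factor, had 0.47 (SE 0.21) and 0.61 without the library, and the ERK phosphatase gene Dusp6 had 0.43 (SE 0.19) and 0.50. The sequence TGACGTCA, the cyclic AMP response element, was found in 3 of 28 of these promoters (10.7%) against 2.03% of all. The 3 genes, named after their values were seen, were Dusp1 (0.70), Btg2 (0.13) and Maff (-0.12). None of them reached that p, and the promoters of Csrnp1 and Dusp6 were not among the matches. Of 19 glucocorticoid response genes 13 were positive with a median of 0.09, and 2 positive and 2 negative reached that p. Sgk1, a kinase induced by corticosteroids, had 0.43 (SE 0.16), with R47H libraries from 45.6 to 69.1 CPM in control and 65.1 to 97.8 in induced mice. Map3k6, a stress-activated kinase, had -0.55 (SE 0.21), and its R47H control libraries (1.64 to 2.99 CPM) and induced libraries (0.889 to 2.26) overlapped.

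Cortical interneuron genes had 17 negative members of 21, a median of -0.08 and 3 at an unadjusted p below 0.05, all negative (14.3%, beside 7.94% of all tested genes). Under library totals alone the median was 0.004, beside 0.09 for all tested genes. Nos1, the neuronal nitric oxide synthase of a sparse interneuron class, lay at 69.7, 76.0 and 80.3 CPM in WT control, 72.9, 81.4 and 88.6 in WT induced, 79.6, 84.8 and 88.7 in R47H control and 68.3, 78.0 and 83.2 in R47H induced libraries. The R47H control group was highest and all groups overlapped. Its interaction was -0.23 (SE 0.06, unadjusted p = 0.00116), and -0.26 both without WT induced replicate 6 and with the rRNA-like share. Crh, the corticotropin-releasing hormone, had -0.52 (SE 0.16, unadjusted p = 0.00305). Of 22 genes of excitatory cortical layers 15 were positive with a median of 0.03. At an unadjusted p below 0.05 there were 2 (9.09%, near the 7.94% of all tested genes). They were Neurod2 (0.28, SE 0.08) and Cux2 (0.18, SE 0.08), transcription factors of excitatory neurons. Scg2, a dense-core granule protein, had -0.20 (SE 0.06). Its WT control libraries (190.0 to 213 CPM) and induced libraries (215 to 241) did not overlap. Presynaptic release genes had a median of 0.02 and cytosolic ribosomal protein genes -0.02 (0.08 under library totals alone), each with 1 gene at that p, and respiratory chain genes 0.01 with 1. These were 5.56%, 2.22% and 3.03% of the lists, below the share of all tested genes.

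In cholesterol synthesis, which supplies the brain's own sterol, 18 of 25 genes were positive with a median of 0.02, and 4 reached an unadjusted p below 0.05, all positive. There were 7 without WT induced replicate 6, and 7 with the rRNA-like share. By sex, the list median was 0.20 in male and -0.003 in female libraries alone. Lss, the lanosterol synthase, had 0.19 (SE 0.07), and the later enzyme gene Hsd17b7 0.21 (SE 0.08). Mvd, of the mevalonate arm, had 0.16 (SE 0.07). Of 18 lipid transport genes 13 were negative with a median of -0.09, which was 0.005 under library totals alone, and 4 negative and 1 positive reached that p. Nr1h3, the liver X receptor alpha that induces sterol export, had -0.39 (SE 0.14), and the scavenger receptor gene Cd36 had -1.05 (SE 0.40) and -0.54 without the library. Of 26 lysosome genes 20 were negative with a median of -0.06, which was 0.03 under library totals alone. Npc2, which carries cholesterol out of lysosomes, had -0.20 (SE 0.08) and -0.13 without it.

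Markers of other cells were also mostly negative. Of 20 endothelial and barrier genes 17 were negative with a median of -0.12, which became 0.06 with the rRNA-like share. Cldn5, a tight junction protein, had -0.35 (SE 0.13) and -0.21 with the share. Of 18 meningeal fibroblast genes 16 were negative with a median of -0.22, and 5 reached an unadjusted p below 0.05. When WT induced replicate 6 was left out 2 did, with a median of -0.13, and with the share 1 did, with a median of -0.11. Col1a1 had -0.41 (SE 0.17), -0.39 without that library and -0.33 with the share. Of 18 astrocyte genes 14 were negative with a median of -0.07, which was 0.02 under library totals alone, and the gap junction gene Gja1 had -0.13 (SE 0.06). Myelin and oligodendrocyte genes had a median of -0.02 (0.07 under library totals alone), with 8 positive and 11 negative. Choroid plexus genes had a median of -0.13, with 11 of 15 negative. Their summed level varied widely within groups, from 202 to 725 CPM in WT control and 218 to 576 in WT induced libraries. In R47H it ran from 218 to 1070 in control and 210 to 1168 in induced libraries. Summed striatal neuron genes ran from 2042 to 2612 CPM over all groups, beside 2137 to 2386 for excitatory cortical layers. Whether the tissue taken differed between libraries was not tested. Of 15 blood leukocyte markers only 3 passed the filter on low counts, and none of the 15 was at 0 in all libraries. Their summed level ran from 4.77 through a median of 5.35 to 28.8 CPM in WT induced libraries and reached at most 6.95 in any other group. Ccr2, the chemokine receptor of blood monocytes, had -2.59 (SE 1.22, unadjusted p = 0.0465) and -0.22 without WT induced replicate 6, the library that was highest in the immune lists above. Trbc2, of the T cell receptor, and S100a9, of neutrophils, had 0.17 and 0.28. Whether a shift in these cells takes part in any result above was not tested.

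The interaction was also compared between the sexes, an analysis added after the data were seen. In a fit of 8 cells with 3 libraries each, 34 of 19678 genes had a female minus male difference of the interaction at an adjusted p below 0.05 (0.173%, edgeR), and 3248 had an unadjusted p below 0.05 (16.5%). Leaving out WT induced replicate 6 gave 37 called genes, 27 of them shared, and with the rRNA-like share 23, all shared. Leaving out 1 library at a time gave 14 to 184. Fewest were called without WT induced replicate 5 (14), WT control replicates 3 (19), 6 (19) and 5 (20) and R47H control replicate 2 (22). Most were called without R47H control replicate 4 (184), WT induced replicates 4 (163) and 2 (84), WT control replicate 1 (68) and R47H induced replicates 4 (60) and 5 (54). The rRNA-like share had an interaction of -6.82 percentage points in females and -4.49 in males.

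Bmpr1a, a receptor for bone morphogenetic proteins, had the lowest p of that test. In females it ran from 56.1 to 57.9 CPM in WT control, 64.9 to 69.4 in WT induced, 66.2 to 69.8 in R47H control and 60.0 to 61.6 in R47H induced libraries. In males the same groups ran from 62.8 to 66.8, 61.3 to 62.7, 61.6 to 64.2 and 67.2 to 72.2. Induced females were higher than controls in WT and lower in R47H, and induced males were lower in WT and higher in R47H, with no overlap between induced and control in any of the 4 pairs. The interaction was -0.40 in females and 0.20 in males, a difference of -0.59 (SE 0.08, adjusted p = 0.000648 by edgeR), called in all 24 leave-one-out fits. Ncoa4, the receptor that delivers ferritin to lysosomes, had a difference of -1.15 (SE 0.18, adjusted p = 0.00263) and Josd2, a deubiquitinase, 0.82 (SE 0.12, adjusted p = 0.00136), both also called in all 24.

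Aqp4, the water channel of astrocyte endfeet, had a difference of -0.71 (SE 0.13, adjusted p = 0.0216 by edgeR), called in 21 of 24 leave-one-out fits. The adhesion gene Vcam1 (-0.80, 12 of 24), the double-stranded RNA receptor gene Tlr3 (-0.77, 6 of 24) and the lipid transporter gene Abca7 (0.64, 16 of 24) were less stable. After adjustment for the rRNA-like share Vcam1 and Tlr3 no longer passed (adjusted p = 0.0593 and 0.0729 by edgeR), and Tlr3 did not pass without WT induced replicate 6 (adjusted p = 0.0577). These 7 genes were chosen after their values were seen. For the GBP and IRG list the median interaction was -3.13 in female libraries, -2.12 in females without WT induced replicate 6 and 0.26 in male libraries. The Gbp2 difference between the sexes did not pass (adjusted p = 0.128 by edgeR). For immediate early genes the medians were 0.27 in females and 0.30 in males. Besides genes whose calls in 1 sex are given above, Gfra2 (-0.42) and Bhlhe40 (0.34) passed an adjusted p of 0.05 by edgeR in females alone. So did Bmpr1a (-0.40), Ncoa4 (-0.67) and Amigo2 (-0.54), and all of these also passed in females without WT induced replicate 6. Lyz2 (-1.10), Neurod2 (0.49), Csrnp1 (0.62), Dusp6 (0.54), Aqp4 (-0.40) and Ccdc62 (1.44) passed in females only without that library.

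**Figure D5:**
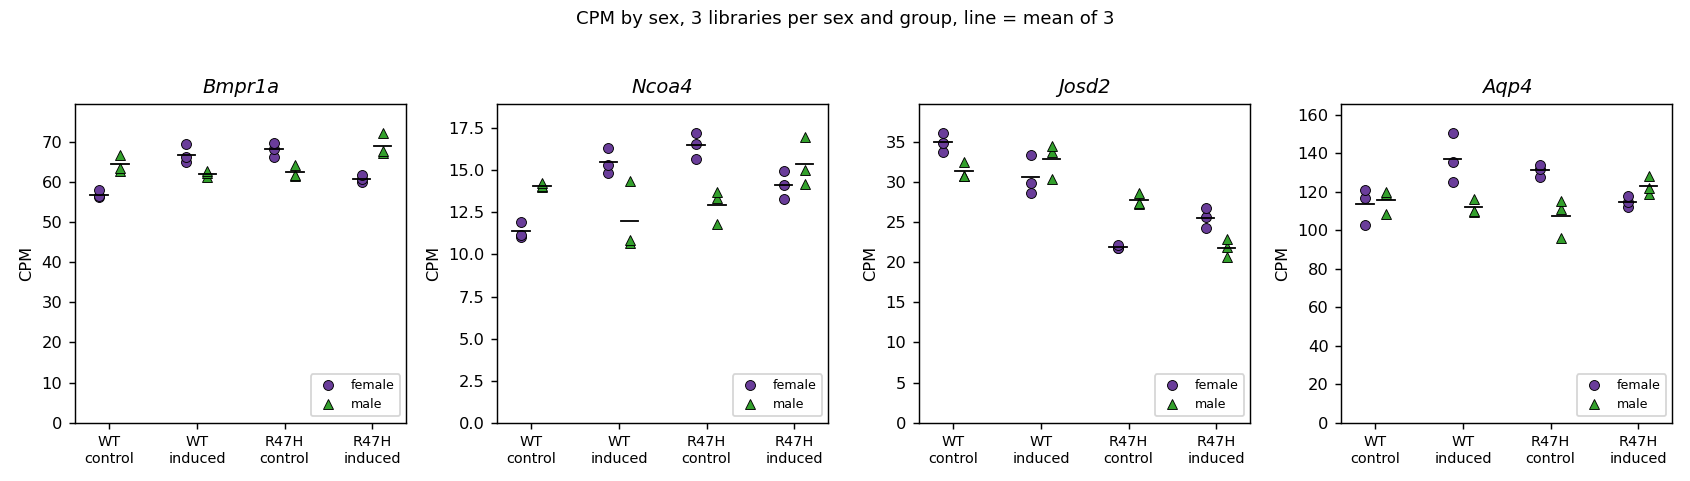
TMM-scaled CPM (vertical axis, from 0) of 4 genes by group and sex, with 3 libraries for each sex in each group and the line at their mean. The female and male libraries of Bmpr1a cross over between groups: induced females lie above controls in WT and below them in R47H, and induced males do the reverse.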

How the data were processed

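RNA of mouse cortex from 24 mice was measured, 1 library per mouse. The deposited table holds raw counts, whole numbers of reads for each gene. Per the submitters' processing notes, the tools were STAR 2.5.2b and featureCounts 1.5.1, with mm10 as the build. How reads were counted, and on which annotation release, no label or header states. Per the labels' protocols, poly-A RNA went into the TruSeq v2 kit, which does not mark strand.

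Groups came from the genotype and treatment labels. Counts were scaled by TMM and fitted in R 4.3.3 by edgeR 4.0.16 (filterByExpr, quasi-likelihood test, robust setting) over all 24 libraries, with Benjamini-Hochberg adjustment over 19678 genes. All p-values in the report come from this test unless another tool is named. SE is the absolute log2 value over the root of F. Within groups, all 60 library pairs differed beyond counting error (chi-square over its degrees of freedom 4.60 or more), so none was a recount of another. This check cannot tell separate mice from separate preparations of 1 mouse. Each library was taken as 1 replicate, and nothing more says how mice were housed or littered.

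The genes, the lists and the tests were chosen with earlier results of these data known. Named genes are Trem2, Cx3cr1, the 24 lowest p, genes called by DESeq2 1.42.0 or limma 3.58.1, and up to 4 lowest-p members of a list; other names are given as chosen after values were seen. Of the 24 genes, 2 are not reported here. Lists are described by counts and medians, without a test. Alternatives were other scalings, filters and tools, a sex term, each sex alone, adjustment for the rRNA-like share, and leaving out each library. The edgeR steps were tested on simulated data.

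Female or male was read from Y-linked genes and Xist. Overlapping exons were counted in GENCODE vM21; of 93 named genes checked, 31 had some overlap.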

Additional observations from a re-analysis of the deposited data

Results flagged for a closer look

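In groups of 6 libraries, a library was marked when its gap to the nearest other library, divided by the range of the group, was above Dixon's 95% critical value for 6 values. Over 348 groups of 86 genes and the rRNA-like share there were 44 such cases, and chance alone marks about 5% of groups. That rate holds for independent groups that were not selected. The genes here were partly chosen for a low p or after values were seen, and 1 library can mark many genes at once. The 5% is therefore no yardstick for the number of cases. WT induced replicate 6 made 22 of the cases, each time as the highest library. Its gap took these shares of the range: 0.632 for Trem2, 0.811 for Tyrobp, 0.948 for Cd74, 0.952 for H2-Aa, 0.954 for H2-Ab1, 0.951 for H2-Eb1, 0.694 for Gbp2 and 0.833 for Psmb8. Further shares were 0.868 for H2-Q7, 0.784 for Nlrc5, 0.828 for Bst2, 0.817 for Ifit2, 0.641 for Ifi44, 0.840 for C4b, 0.649 for Ly86 and 0.742 for Fcgr1. The remaining shares of this library were 0.762 for Laptm5, 0.918 for Lyz2, 0.889 for Itgax, 0.836 for Cd36, 0.820 for Gfap and 0.727 for Igtp. Cd36 is given above among lipid transport genes, and the other genes are members of immune or glial lists.

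In WT groups other libraries stood apart. Among WT control libraries the gap was 0.632 of the range for Gm6685 (replicate 3, lowest), 0.742 of the range for Samd4 (replicate 5, highest), 0.679 of the range for Slco2b1 (replicate 1, lowest), 0.719 of the range for Ccdc62 (replicate 4, highest) and 0.702 of the range for Sgk1 (replicate 5, highest). Among WT induced libraries the gap was 0.749 of the range for Pcdh17 (replicate 5, highest), 0.769 of the range for Mapkapk5 (replicate 5, highest), 0.638 of the range for Glra2 (replicate 5, highest) and 0.830 of the range for Bhlhe40 (replicate 3, lowest). 

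In R47H groups the same was seen. Among R47H control libraries the gap was 0.707 of the range for Gm5089 (replicate 3, lowest), 0.900 of the range for Tgtp1 (replicate 2, highest), 0.650 of the range for Gbp2 (replicate 2, highest), 0.637 of the range for Sparc (replicate 3, lowest), 0.741 of the range for Csrnp1 (replicate 5, highest), 0.709 of the range for Crh (replicate 4, highest) and 0.635 of the range for Scg2 (replicate 4, highest). Among R47H induced libraries the gap was 0.672 of the range for Gm10557 (replicate 6, highest), 0.637 of the range for Gm9816 (replicate 6, highest), 0.684 of the range for Slco2b1 (replicate 5, lowest), 0.688 of the range for Gfra1 (replicate 2, lowest), 0.683 of the range for Bst2 (replicate 5, highest) and 0.728 of the range for C3 (replicate 1, highest). Of these, Tgtp1 in R47H control replicate 2 lay at 0.692 CPM, with the next library at 0.236.

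The interaction differed between the sexes at an adjusted p below 0.05 (edgeR, fit of 8 cells added after the data were seen) for 7 named genes. The female minus male difference was -0.59 for Bmpr1a, 0.82 for Josd2, -1.15 for Ncoa4, -0.71 for Aqp4, -0.80 for Vcam1, -0.77 for Tlr3 and 0.64 for Abca7. For Aqp4 the medians were 117 and 136 CPM in WT control and induced females and 132 and 115 CPM in R47H control and induced females. In males the 4 medians of Aqp4 were 119, 110, 111 and 122 CPM, in the order WT control, WT induced, R47H control and R47H induced. For Ncoa4 the female medians were 11.2, 15.3, 16.6 and 14.1 CPM in the same order of groups, and the male medians 14.0, 10.8, 13.4 and 15.02. After adjustment for the rRNA-like share 5 of the 7 still passed, and Vcam1 (adjusted p = 0.0593 by edgeR) and Tlr3 (0.0729) did not. Tlr3 also did not pass without WT induced replicate 6 (0.0577). The part of the share in these differences was not tested beyond these values.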

How the results depend on the processing

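The count of 0 genes at an adjusted p below 0.05 became 3 with DESeq2, 14 in male and 30 in female libraries alone, 80 in females without WT induced replicate 6, and 0 to 1 when each library was left out; it stayed 0 with other scalings, filters, limma-voom and the rRNA-like share. Genes at an unadjusted p below 0.05 numbered 2793 positive and 245 negative under library totals alone, 1213 negative with no filter, 1454 and 1492 in females, 1161 and 1374 in females without replicate 6, 473 and 399 with the rRNA-like share, and 497 and 444 with that share and without replicate 6. Leaving out each library gave 611 to 847 positive and 674 to 961 negative genes. The sex difference was called for 14 to 184 genes when each library was left out.

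Medians of the lists the report turns on most moved as follows. TREM2 partners had -0.051 with the share, -0.051 with the share and without replicate 6, -0.011 in males and -0.12 in females without replicate 6. Type I interferon genes had -0.10, -0.13, 0.16 in males and -1.55 in females. GBP and IRG genes had -0.46, -0.55, 0.26 and -3.13, and class I genes -0.17, -0.20, 0.17 and -1.84. Class II genes had -0.066, -0.072 and, in females, -1.46. Medians under library totals in what follows stand beside 0.09 for all tested genes. Clock genes had 0.18 under library totals and 0.030 in females without replicate 6. Cholesterol genes had 0.12 under library totals, 0.20 in males, -0.003 in females and -0.005 in females without replicate 6. Pan-microglial genes had -0.11 with the share, -0.024 in males and -0.72 in females, complement genes -0.12, -0.032 and -0.85, homeostatic genes -0.018, 0.033 and -0.25, and endothelial genes 0.059, 0.11 and -0.29. Reactive astrocyte genes had 0.035 in males and -0.56 in females. The list of neurotrophins and of neurotrophin and GDNF receptors had -0.079 under library totals, -0.049 in females and -0.10 in females without replicate 6. Leave-one-out ranges were -0.30 to -0.045 (TREM2 partners), -1.02 to -0.23 (type I interferon), -2.08 to -0.88 (GBP and IRG), -1.15 to -0.34 (class I), -0.78 to -0.072 (class II), 0.23 to 0.39 (immediate early) and -0.002 to 0.06 (cholesterol).

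Signs reversed in male libraries for Cx3cr1 (0.025), Tyrobp (0.044), Gbp4 (0.12), Gbp2 (0.25), Bst2 (0.30), Ifit2 (0.065), C3 (0.68), Lyz2 (0.15), Amigo2 (0.019), Irgm2 (0.43) and Tgtp2 (1.98), and in females without replicate 6 for Itgax (0.12). The cause was not tested.

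No paired analysis was possible because the labels give no replicate numbers that pair mice across groups. Low counts limit the genes under 1.30 CPM, and errors cover only the spread between these libraries.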

Other observations

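Genes in 2 stretches of the genome were read after their values were seen, so the counts are a description without a test. On chromosome 5, in the 4 Mb from position 120000001 (mm10), 12 of 89 tested genes had an unadjusted p below 0.05 for the interaction (13.5%, edgeR), 9 of them positive, beside 7.94% of all tested genes. They include Diablo and Mapkapk5, given in the report, and Ccdc62, a testis-expressed gene outside the naming rule (1.05, SE 0.28, and 1.11 without WT induced replicate 6). On chromosome 4, in the 4 Mb from position 132000001, 20 of 104 reached that p (19.2%), 10 of them positive. Amigo2, a neuronal adhesion protein also listed among reactive astrocyte genes, had -0.27 (SE 0.09) in all libraries and -0.54 in female libraries alone.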
